A study of Mus musculus with 4 samples.

Results

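Neutrophils, the granulocytes that carry most of the S100a8 and S100a9 RNA of inflamed tissue, were followed in single-cell libraries of the mouse ascending aorta. They were chosen by measured values: a barcode that showed 200 genes or more, and under 20% of its UMIs from mitochondrial genes, was a neutrophil with at least 5 S100a8 and S100a9 UMIs together, at least 1 Csf3r UMI, no C1qa or C1qb UMI, no Cd79a or Cd3e UMI and under 3 Dcn UMIs. A UMI (unique molecular identifier) marks 1 captured RNA molecule. This rule took 921 of 40565 kept barcodes. In the AD_ABR group, male WT mice drank BAPN, an inhibitor of lysyl oxidases that weakens the aortic wall, at 1 g/kg per day for 4 weeks from 3 weeks of age and also received paquinimod (the ABR of the labels), a compound that binds S100A9, by the intragastric route at 10 mg/kg per day. The AD group, also male WT, had the same BAPN model of aortic dissection without paquinimod. Each group has 2 libraries made with 10x 3′ chemistry, and no group without BAPN is part of this comparison. The labels do not say how many mice a library holds, so that tests over libraries measure the spread between these samples, which may be technical.

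Neutrophils mature in bone marrow, where they load primary, secondary and tertiary granules in that order, enter blood when CXCR2 signals exceed CXCR4 signals, and are drawn into injured tissue by chemokines, leukotriene and complement fragments. Granulocyte colony-stimulating factor, read through the receptor CSF3R, drives their production and survival. In dissecting aorta they are known as a source of interleukin 1β, S100A8/S100A9, reactive oxygen and MMP9, a protease that cuts elastin and collagen. A neutrophil holds little RNA, and its transcripts change after it leaves blood.

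Neutrophils were rare in AD_ABR aorta. They were 17 of 9116 and 7 of 10806 kept barcodes in AD_ABR, against 793 of 9945 and 104 of 10698 in AD. The shares were 0.186% (exact 95% binomial interval 0.109 to 0.298%) and 0.0648% (0.0260 to 0.133%) in AD_ABR, against 7.97% (7.45 to 8.52%) and 0.972% (0.795 to 1.18%) in AD. The 2 groups did not overlap, but the AD libraries lay farther from each other than the lower of them lay from AD_ABR. The means were 0.126 ± 0.0861% in AD_ABR and 4.47 ± 4.95% in AD (SD, n = 2 each), a 35.6-fold lower mean in AD_ABR, and the exact two-sided permutation test over libraries gave p = 0.333, the smallest it can give. Without AD replicate 1 the mean in AD_ABR was 7.74-fold lower. Because paquinimod targets S100A9, the rule was also run with Cxcr2 or Il1r2 in place of S100a8 and S100a9. The shares were then 0.197 and 0.0925% in AD_ABR, against 7.26 and 1.09% in AD. Intervals cover counting error only.

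At the border of the rule, 83 and 10 neutrophils of AD replicates 1 and 2 held 5 to 7 S100a8 and S100a9 UMIs, and 26.5 and 30% of them had a UMI of Cxcr2, the receptor for CXCL1 and CXCL2. A further 100 and 12 barcodes met every other criterion with 2 to 4 such UMIs, and 16.0 and 16.7% of these had a Cxcr2 UMI. Il1r2, the decoy receptor of interleukin 1, was seen in 65.1 and 70.0% just inside and in 59.0 and 75.0% just outside. Without the Csf3r criterion 19 and 8 barcodes of AD_ABR met the rule, against 1214 and 179 of AD. Exactly 1 Csf3r UMI was held by 349 of 793 and 58 of 104 AD neutrophils. The shares of barcodes and UMIs given here thus cover only barcodes with a captured Csf3r UMI. Whether the barcodes without one are neutrophils was not tested.

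The neutrophils were shallow cells. Their median was 2635 and 1961 UMIs in AD_ABR, against 1568 and 1534 in AD, while all kept barcodes had medians between 5569 and 9529 UMIs. Of 10 neutrophil markers, 9 and 9 were detected in AD_ABR and 10 and 10 in AD, among them Cxcr2, Il1r2, Mmp9 and G0s2, which the rule did not use. The marker not detected in AD_ABR was Ly6g, which was also outside the rule and low in AD. Markers of mast cells and basophils had no UMI in any library, nor had Epx and Prg2, the granule genes of eosinophils. The 7 macrophage markers, with C1qa and C1qb at 0 by the rule, together reached 96.2 and 205 CPM in AD_ABR, against 237 and 178 CPM in AD, where CPM is the UMIs of a gene per 1000000 UMIs of the summed cells. Over neutrophils of at most 5000 UMIs, Ly6g had 0 and 0 CPM in AD_ABR, against 7.93 and 6.11 CPM in AD. The smooth muscle markers Acta2, Myh11, Tagln and Cnn1 together reached 9492 and 1025 CPM in AD_ABR, against 2024 and 2482 CPM in AD, and the 4 endothelial markers 1635 and 0 CPM in AD_ABR, against 213 and 5.25 CPM in AD. Some barcodes were deep: 3 and 0 neutrophils of AD_ABR and 38 and 3 of AD held over 5000 UMIs, and the 3 in AD_ABR replicate 1 carried 62.7% of its neutrophil UMIs. Between 18 and 36 kept barcode sequences were shared by each pair of libraries, and none was a neutrophil in both.

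In AD aorta a small population held a large part of several transcripts. Neutrophils held 2.14 and 0.193% of the UMIs of AD replicates 1 and 2. Leaving aside Csf3r, which was part of the rule, they held 53.5 and 33.1% of the Cxcr2 UMIs and 43.6 and 34.3% of those of Siglecf, a sialic acid-binding lectin that tissue neutrophils can acquire. They held 42.4 and 47.4% of the UMIs of Il36g, an interleukin 1 family cytokine, and 38.5 and 61.0% of those of Retnlg, a resistin-like gene of circulating neutrophils. Of the UMIs of Mmp9 they held 40.5 and 31.5%, and of Acod1, which makes itaconate, 40.2 and 26.0%. For these genes the share stayed at or above 26.0% in both AD libraries, although neutrophils were 7.97% of the barcodes of replicate 1 and 0.972% of those of replicate 2. Genes that macrophages also transcribe were split differently: neutrophils held 21.1 and 5.68% of the Il1b UMIs, 27.2 and 5.81% of Ccl3, 18.5 and 5.67% of Nlrp3 and 17.2 and 3.14% of Cxcl2.

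**Figure D1:**
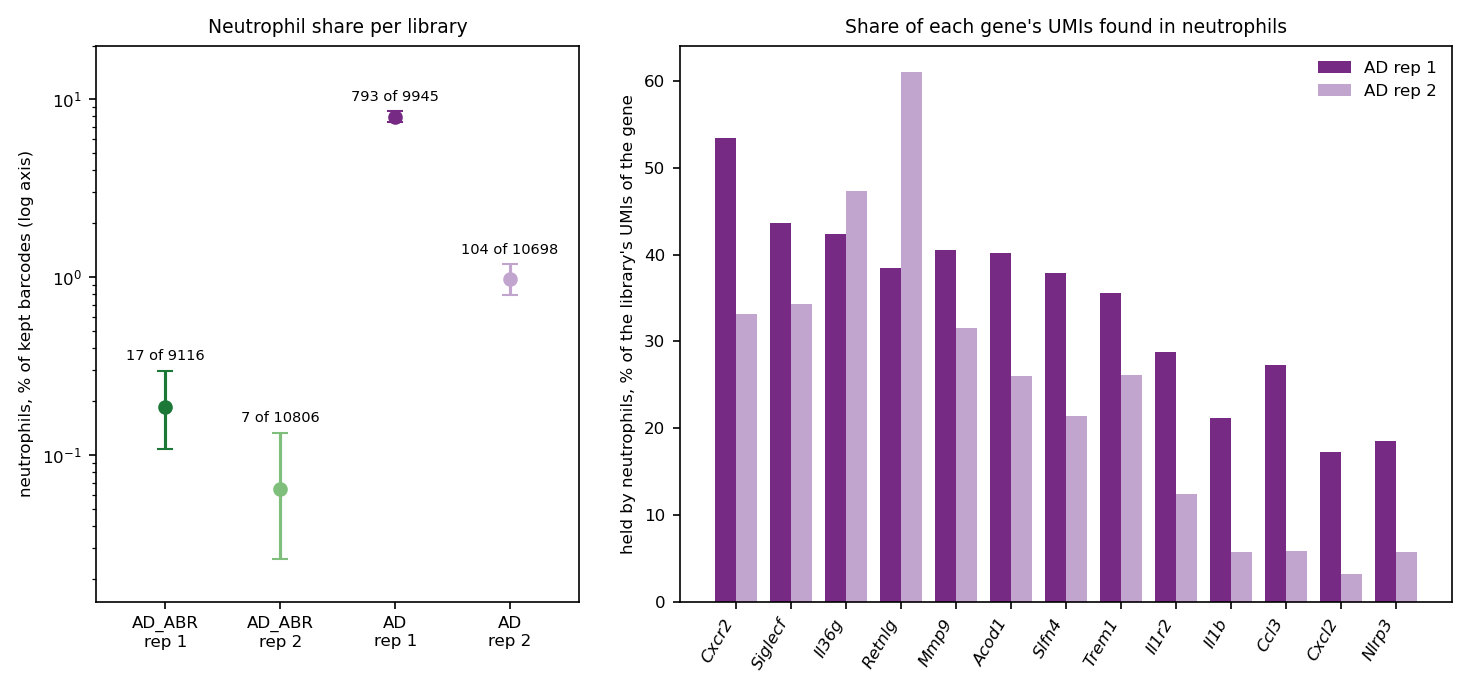
Left, neutrophils as a percentage of kept barcodes on a log axis for each library, with exact 95% binomial intervals; both AD_ABR libraries lie below both AD libraries. Right, for 13 genes, the percentage of the UMIs of the library that neutrophils held in AD replicates 1 and 2; Cxcr2, Siglecf, Il36g and Retnlg exceed 30% in both, and Il1b, Ccl3, Cxcl2 and Nlrp3 are under 10% in replicate 2.

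To place these cells, their levels were set beside those of C1q macrophages (at least 5 C1qa and C1qb UMIs together and under 5 S100a8 and S100a9 UMIs; 1481 and 874 cells in AD). Both cell sets were defined by marker counts, so this contrast repeats what chose them. Its calls are counted to describe the cells and are read as no evidence. Of 11767 genes measured well enough, 14.1% were called higher and 14.3% lower in neutrophils at an adjusted p under 0.05 (edgeR quasi-likelihood test with library as a block), and the list counts below stand beside those shares. The 10 largest log2 differences upward were in Il36g, Stfa2l1, Retnlg, Asprv1, Siglecf, G0s2, Camp, Cxcr2, Wfdc21 and Pglyrp1, from 7.87 to 9.22. Those downward were led by Fcrls (-7.01), an Fc receptor-like gene of macrophages, Ccl12 (-6.87) and Ms4a7 (-6.21). Levels are compared within a gene between cell sets, and UMIs from 3′ ends are not divided by transcript length.

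Granule genes fell into separate groups. Of 12 measured genes of secondary granules, 8 were called higher and 3 lower in neutrophils. Ltf, which encodes the iron-binding lactoferrin, had 185 and 84.0 CPM in neutrophils, against 1.42 and 0 CPM in macrophages. Lcn2, which binds bacterial siderophores, had 327 and 52.5 CPM in neutrophils, against 2.07 and 2.53 CPM in macrophages, and Pglyrp1, a peptidoglycan-binding protein, had 181 and 226 CPM in neutrophils, against 0.872 and 0.634 CPM in macrophages. The granule genes that were lower are shared with macrophages: Lyz2, a lysozyme, had 519.8 and 294 CPM in neutrophils, against 8171 and 8205 CPM in macrophages. Among tertiary granule genes and proteases, 5 of 12 were higher and 4 lower. Mmp9 had 735 and 1175 CPM in neutrophils, against 18.1 and 6.49 CPM in macrophages, so the neutrophil values lay above the macrophage values in both AD libraries. The collagenase gene Mmp8 had 23.4 and 31.5 CPM in neutrophils, against 5.45 and 2.85 CPM in macrophages. The cathepsins ran the other way: Ctss, a lysosomal elastase of macrophages, had 141 and 89.2 CPM in neutrophils, against 1846 and 1368 CPM in macrophages, and Ctsb had 740 and 378 CPM in neutrophils, against 3497 and 3414 CPM in macrophages. Arg2, the mitochondrial arginase, had 269 and 209.9 CPM in neutrophils, against 28.1 and 32.0 CPM in macrophages.

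Of the interleukin 1 family and its receptors, 7 of 10 were called higher in neutrophils and 1, Il18, lower. Il1b, the main secreted agonist, had 2486 and 5804 CPM in neutrophils, against 343 and 733 CPM in macrophages. Il1rn, its soluble antagonist, had 634 and 430.3 CPM in neutrophils, against 67.5 and 79.0 CPM in macrophages. Il1r2, the decoy receptor, had 996 and 1553 CPM in neutrophils, against 20.2 and 10.6 CPM in macrophages. Agonist, antagonist and decoy receptor were thus all at higher levels in neutrophils of both AD libraries. Il36g, an agonist of the related IL-36 receptor, had 101 and 94.5 CPM in neutrophils, against 0.218 and 0 CPM in macrophages, and Il1a had 83.7 and 236 CPM in neutrophils, against 24.6 and 55.8 CPM in macrophages. Tnf, the other classical early cytokine, had 589 and 1401 CPM in neutrophils, against 498 and 775 CPM in macrophages, an order that was the same in both libraries with a log2 difference of 0.45. Csf1, the growth factor of macrophages, had 613 and 945 CPM in neutrophils, against 24.3 and 18.2 CPM in macrophages, and Osm, an interleukin 6 family cytokine, had 346 and 84.0 CPM in neutrophils, against 93.7 and 75.4 CPM in macrophages.

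Chemokines were divided: 2 of 14 were called higher and 10 lower in neutrophils. Cxcl2, a ligand of CXCR2 that draws further neutrophils, had 11536 and 15327 CPM in neutrophils, against 2751 and 4949 CPM in macrophages. Ccl3, a ligand of CCR1, had 4302 and 2849 CPM in neutrophils, against 643 and 985 CPM in macrophages. These were the 2 chemokines called higher. Ccl4, a related CC chemokine, had 3671 and 3285 CPM in neutrophils, against 4723 and 6035 CPM in macrophages. The monocyte chemoattractants ran the other way: Ccl2 had 91.0 and 68.2 CPM in neutrophils, against 495 and 992 CPM in macrophages, and Ccl7 had 48.0 and 36.7 CPM in neutrophils, against 437 and 957 CPM in macrophages. Cxcl10, an interferon-induced ligand of CXCR3, had 228 and 739.9 CPM in neutrophils, against 1341 and 1732 CPM in macrophages. Of the ligands of CXCR2, Cxcl1 had 153 and 278 CPM in neutrophils, against 193 and 540.3 CPM in macrophages, and neutrophils held 0.409 and 0.0392% of its UMIs.

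Among chemoattractant receptors, 7 of 11 were called higher and 2, C3ar1 and Ccr2, lower. Cxcr2 had 271 and 283 CPM in neutrophils, against 1.20 and 0 CPM in macrophages. Cxcr4, the marrow-homing receptor that rises on ageing neutrophils, had 459.5 and 861 CPM in neutrophils, against 191 and 113 CPM in macrophages. Ccr1, a receptor for CCL3, had 799.7 and 787 CPM in neutrophils, against 102 and 76.4 CPM in macrophages, so the ligand and its receptor were both higher in the same cells. Ccrl2, an atypical receptor that presents chemerin, had 1849 and 3054 CPM in neutrophils, against 407 and 440.4 CPM in macrophages. Fpr2, a receptor for formyl peptides and annexin A1, had 91.0 and 73.5 CPM in neutrophils, against 6.98 and 4.44 CPM in macrophages. Trem1, an activating receptor of the myeloid lineage, had 352 and 829 CPM in neutrophils, against 21.0 and 17.6 CPM in macrophages, and the C-type lectin Clec4e, which senses dead cells and mycobacterial lipid, had 976 and 1516 CPM in neutrophils, against 98.1 and 149 CPM in macrophages. By contrast Tlr2 had 132 and 142 CPM in neutrophils, against 268 and 383 CPM in macrophages, and C5ar1, the receptor for complement C5a, had 273 and 331 CPM in neutrophils, against 257 and 339 CPM in macrophages. Of the S100A8/S100A9 receptors, Tlr4 had 54.7 and 52.5 CPM in neutrophils, against 31.3 and 24.9 CPM in macrophages.

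The NADPH oxidase, which makes superoxide, showed unlike levels among its subunits. Ncf1, the cytosolic organiser p47phox, had 402 and 1013 CPM in neutrophils, against 161 and 168 CPM in macrophages. Cybb, the catalytic membrane subunit, had 100.3 and 136 CPM in neutrophils, against 624 and 620.5 CPM in macrophages. The cytosolic subunit gene was thus higher and the catalytic one lower in neutrophils, and of 7 oxidase genes 3 were higher and 2 lower. The inflammasome was split as well, with 5 of 15 genes higher and 5 lower. Its sensor gene Nlrp3 had 586 and 1097 CPM in neutrophils, against 177 and 310.3 CPM in macrophages, and its adaptor gene Pycard had 57.2 and 21.0 CPM in neutrophils, against 152 and 181 CPM in macrophages. Of metabolic genes, Slc2a3, a high-affinity glucose transporter, had 196 and 94.5 CPM in neutrophils, against 5.56 and 2.53 CPM in macrophages, and Slc7a11, the cystine importer, had 589 and 739.9 CPM in neutrophils, against 55.7 and 107 CPM in macrophages. Survival genes were called higher in 10 of 18 cases and lower in 2. Mcl1, on which neutrophils depend, had 2795 and 3148 CPM in neutrophils, against 1430.3 and 1137 CPM in macrophages, and Pmaip1, which encodes its antagonist NOXA, had 484 and 378 CPM in neutrophils, against 99.0 and 68.3 CPM in macrophages. Genes of the cell cycle were higher in 0 of 14 cases and lower in 8.

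Antigen presentation genes were lower in neutrophils for 10 of 13 genes and higher for 3. Cd74, the invariant chain, had 1046 and 871 CPM in neutrophils, against 4331 and 3486 CPM in macrophages. Of the 3 higher ones, Cd274, which encodes PD-L1, had 132 and 84.0 CPM in neutrophils, against 21.7 and 25.5 CPM in macrophages. The Cd74 UMIs were unevenly spread: restricted to neutrophils of at most 5000 UMIs, the level was 232 and 238 CPM. Interferon response genes were higher for 3 of 35 and lower for 17. Isg15, a ubiquitin-like modifier, had 241 and 152 CPM in neutrophils, against 333 and 336 CPM in macrophages, whereas Slfn4, a Schlafen gene of myeloid cells, had 253 and 78.7 CPM in neutrophils, against 9.92 and 3.80 CPM in macrophages.

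**Figure D2:**
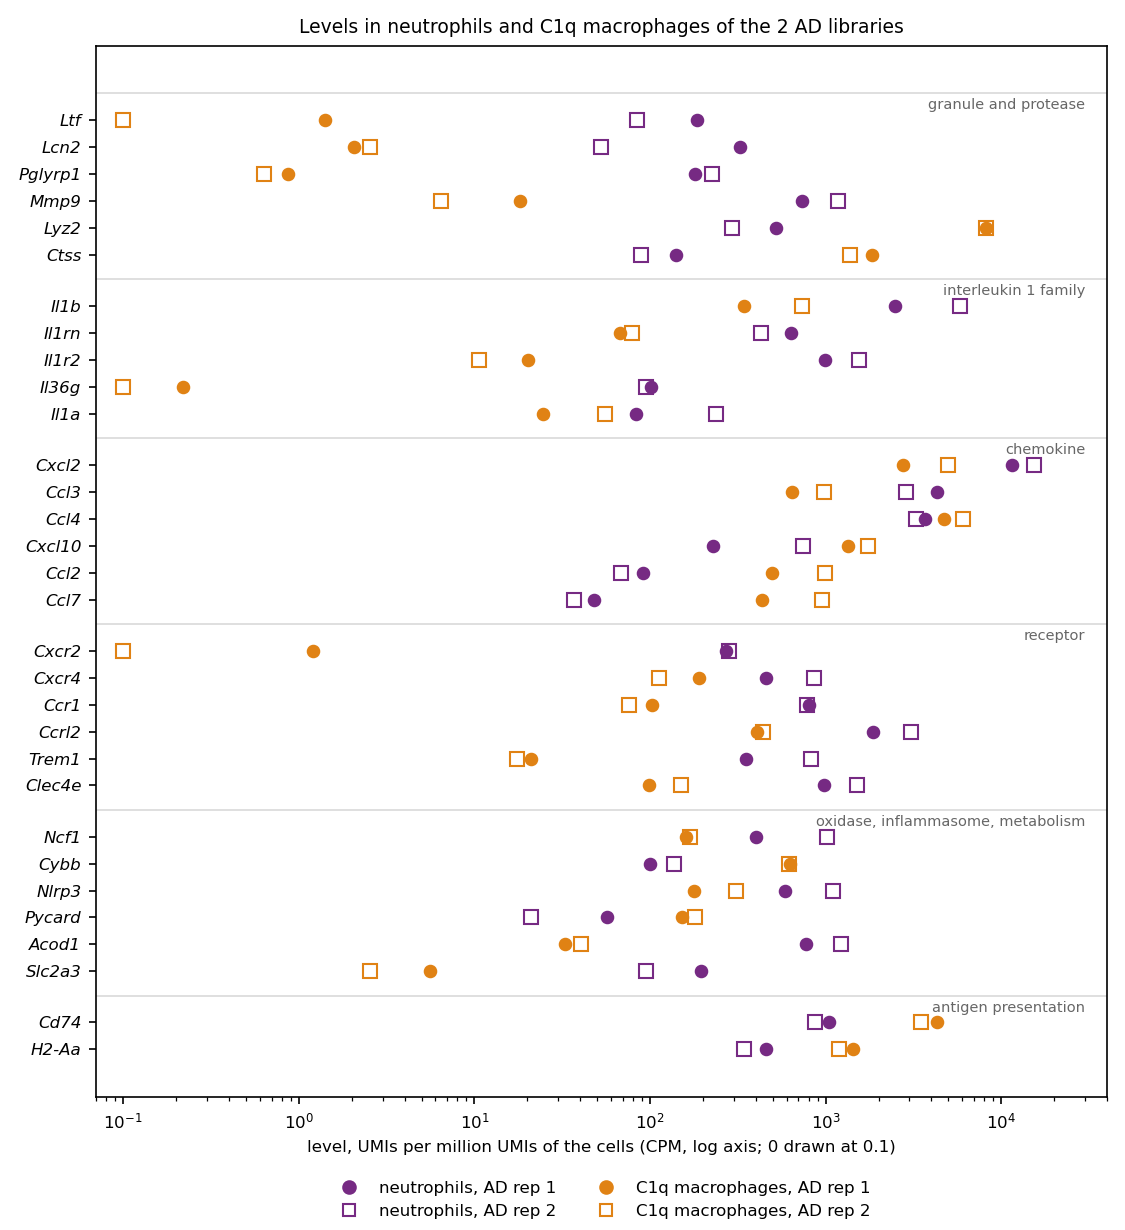
Levels of 31 genes, in CPM on a log axis, in neutrophils (purple) and C1q macrophages (orange) of AD replicates 1 (filled circles) and 2 (open squares), grouped by role; a level of 0 is drawn at 0.1. Mmp9, Il1r2, Il36g, Cxcr2 and Acod1 lie far to the right in neutrophils, Lyz2, Ctss, Ccl2, Ccl7 and Cd74 in macrophages, and Ccl4 close together.

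Neutrophils of the 2 AD libraries fell into 5 clusters when grouped by their own transcripts (Leiden clusters, called by number). The clusters and their genes are a description, since the same values made them. Cluster 0 held 300 cells, 208 of AD replicate 1 (26.2% of its neutrophils) and 92 of replicate 2 (88.5%). Cluster 1 held 292 cells and cluster 2 held 202, and all of both came from replicate 1. Cluster 3 held 54 cells of replicate 1 and 8 of replicate 2 (6.81 and 7.69%), and cluster 4 held 37 and 4. States that only 1 library has cannot be told apart from that library.

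Cluster 0 was led by the anti-apoptotic genes Bcl2a1b, Bcl2a1a and Bcl2a1d, near-identical copies among which reads are hard to assign. Bcl2a1b had 1742 CPM inside the cluster, against 167 CPM in the other neutrophils. Il1b had 6755 CPM inside the cluster, against 1360.5 CPM in the other neutrophils, and within the cluster its level was 6909 CPM in replicate 1 and 6391 CPM in replicate 2. These 2 values lay closer than those over all neutrophils, where Il1b had 2486 and 5804 CPM. Mmp9 had 1770 CPM inside the cluster, against 409 CPM in the other neutrophils, and Acod1 had 1883 CPM inside the cluster, against 418 CPM in the other neutrophils. Trem1, Clec4e, Olr1, a scavenger receptor, and Tnfaip2 were also among the 15 leading genes. Siglecf stood at 262 CPM here, against 87.7, 144 and 16.5 CPM in clusters 1, 2 and 3.

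Cluster 1 was led by stress and immediate early genes. Ddit4, an inhibitor of mTOR signalling, had 317 CPM inside the cluster, against 54.6 CPM in the other neutrophils. Hmox1, which degrades heme, had 2047 CPM inside the cluster, against 583 CPM in the other neutrophils. Egr1 and Jun, transcription factors that respond early to a stimulus or to tissue digestion, had 9698 and 14283 CPM inside the cluster. Jun was also higher in the macrophages of replicate 1, where it had 3288 CPM, against 1216 CPM in those of replicate 2, and Hspa1a, a heat shock gene, 5560.1 against 1217 CPM. The part of library handling in cluster 1 was not tested. Hmox1 did not follow this pattern in macrophages, with 1303 and 1735 CPM in replicates 1 and 2. Cluster 2 had less distinct leaders: Rgs1, a brake on chemokine receptor signalling, had 2263 CPM inside the cluster, against 887 CPM in the other neutrophils, and Ccl4 had 6603 CPM inside the cluster, against 2925 CPM in the other neutrophils.

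Cluster 3 was led by genes of younger, circulating neutrophils and by interferon response genes. Retnlg had 3041 CPM inside the cluster, against 56.6 CPM in the other neutrophils, and Lcn2 had 3148 CPM inside the cluster, against 93.8 CPM in the other neutrophils. Within the cluster Retnlg had 2998 CPM in replicate 1 and 3411 CPM in replicate 2, whereas Lcn2 had 3486 and 238 CPM, so its level was carried by replicate 1. The 7 granule precursor genes described below reached 22665.6 CPM in this cluster, against at most 149 CPM in any of the others. Few cells carried this level: Camp and Ngp were each seen in 6.45% of the cells of cluster 3 and Ltf in 9.68%. In its cells of replicate 2, Camp and Ngp had 0 CPM and Ltf had 79.3 CPM. Of the interferon genes, Rsad2, which encodes the antiviral enzyme viperin, had 1582 CPM inside the cluster, against 74.3 CPM in the other neutrophils, and Isg15 had 1780.3 CPM inside the cluster, against 120.4 CPM in the other neutrophils. At 1000 UMIs per cell, the interferon gate described below was passed by 5 of 44 Retnlg-positive neutrophils of AD replicate 1 (11.4%). In replicate 2 it was passed by 1 of 8 (12.5%). Among Retnlg-negative neutrophils 32 of 663 (4.83%) and 2 of 94 (2.13%) passed. The share was thus higher in Retnlg-positive cells of both libraries, on few cells. A finer clustering put 45 of the 62 cells with 66 cells of cluster 1 and 15 in a small cluster. Il1b stood at 3044 and 7694 CPM and Siglecf at 18.4 and 0 CPM in replicates 1 and 2. Cluster 4 was set apart by depth, with a median of 8317 UMIs, and 75.6% of its cells were marked as doublets by Scrublet, which scores barcodes that resemble mixtures of 2 cells. Its leading genes belong to smooth muscle (Tagln, Myh11, Acta2), elastic fibre (Eln) and antigen presentation (Cd74, H2-Aa).

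**Figure D3:**
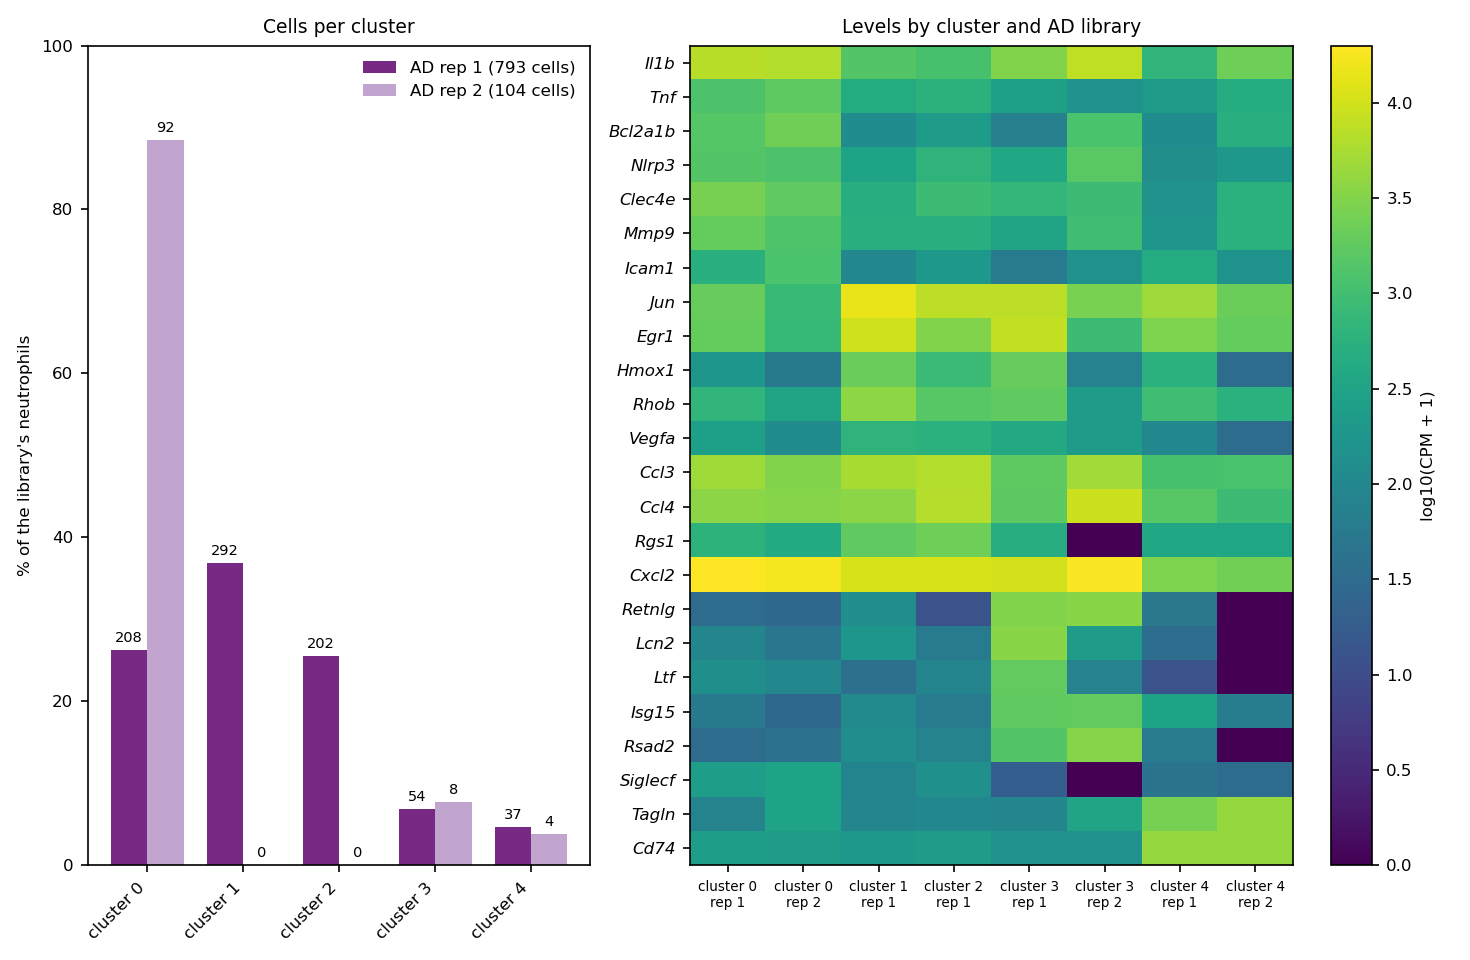
Left, neutrophils of AD replicates 1 and 2 in each cluster as a percentage of the neutrophils of the library, with numbers of cells above the bars. Right, levels of 24 genes in each cluster and library, as log10(CPM + 1) in colour; within each library Bcl2a1b and Mmp9 are brightest in cluster 0, Retnlg and Isg15 in cluster 3, and Tagln and Cd74 in cluster 4, and Jun is brightest in cluster 1 of replicate 1.

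Cells with granule precursor transcripts were few. Of the 793 neutrophils of AD replicate 1, 12 (1.51%) held at least 3 UMIs of the 7 precursor genes Mpo, Elane, Prtn3, Ctsg, Ltf, Camp and Ngp, and these 12 held 96.3% of the 2882 precursor UMIs. Mpo, Elane, Prtn3 and Ctsg, which fill primary granules in promyelocytes, were found among them in 1 cell. Camp, the cathelicidin gene of the later secondary granules, was found in 5 of the 12, and Ltf in 11. A UMI of Mki67, which marks dividing cells, was seen in 3. In AD replicate 2, 2 of 104 (1.92%) held at least 3 precursor UMIs, all of Ltf, and Mpo, Elane and Ctsg had no UMI. The AD_ABR neutrophils had 2 and 0 precursor UMIs. The Camp level of 878 CPM over the neutrophils of AD replicate 1 therefore came from few cells.

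Siglecf, by contrast, was spread over many cells. It was seen in 144 neutrophils of AD replicate 1 (18.2%) and 35 of replicate 2 (33.7%), and its level was 119 and 241 CPM in neutrophils, against 0.436 and 0.158 CPM in macrophages. The eosinophil genes Epx and Prg2 had no UMI in any AD neutrophil, and Ear2 had 1 UMI in each AD library. Cxcr2 was seen in 43.1 and 28.6% of the neutrophils with Siglecf, against 32.5 and 37.7% of those without. The order was opposite in the 2 libraries, so Cxcr2 did not separate the sets in 1 direction.

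Blood-stage, chemokine and interferon states of AD neutrophils were then tested with the gate genes and rule genes left out. Each cell was thinned to 1000 UMIs, so that cells of unlike depth could be gated alike, which left 707 and 102 AD neutrophils. UMIs of all genes were then summed per library on each side of a gate and compared within libraries by edgeR's quasi-likelihood test, with p-values adjusted over all genes tested by the Benjamini-Hochberg method. The 2 sides of a gate come from the same 2 libraries. A gene could pass the filter on low counts through 1 side alone, so counts and medians over the tested members of a list describe those members only. The blood-stage gate, at least 1 Retnlg UMI, was passed by 1 of 17 and 1 of 7 neutrophils in AD_ABR, against 44 of 707 (6.22%, exact 95% interval 4.56 to 8.27%) and 8 of 102 (7.84%, 3.45 to 14.9%) in AD. Among C1q macrophages of the AD libraries, which should lack Retnlg, 1 of 1473 and 0 of 866 passed, with median depths of 5463 and 6252.5 UMIs before thinning. Without thinning 7.64 and 8.82% of AD neutrophils passed.

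On the Retnlg-positive side 1 of 2221 genes was called higher (0.045%) and 0 lower (0%). Mmp8, a collagenase stored in granules, had 291 and 242 CPM on the positive side, against 6.16 and 17.0 CPM on the negative side (log2 fold change 5.45, SE 0.46, adjusted p = 0.045). The AD replicate 2 value rests on 3 UMIs. The 12 tested secondary granule genes had log2 fold changes above 0 in 12 cases, with a median of 2.05, against a median of -0.07 over all genes tested, and none of the 12 passed the test. Lcn2 had 2392 and 242 CPM on the positive side, against 199 and 39.7 CPM on the negative side (log2 fold change 3.61, SE 0.51, adjusted p = 0.153). Slpi, an inhibitor of neutrophil elastase, had 2424 and 2738 CPM on the positive side, against 487 and 227 CPM on the negative side (log2 fold change 2.96, SE 0.41, adjusted p = 0.153). Ccl6, a CC chemokine, had 999 and 3221 CPM on the positive side, against 199.9 and 295 CPM on the negative side (log2 fold change 2.93, SE 0.39, adjusted p = 0.153). The positive values of Slpi and Ccl6 lay above the negative ones in both libraries. The number of calls was unstable: it ran between 0 and 83 over the alternatives, 83 with a second random thinning and 11 without the cells that held precursor UMIs, a setting in which Mmp8, Slpi and Ccl6 were among those called. The Ccl3 or Ccl4 gate described next was passed by 52.3% of Retnlg-positive cells, against 85.5% of Retnlg-negative cells in replicate 1, and by 75.0%, against 80.9% in replicate 2.

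The chemokine gate, at least 1 UMI of Ccl3 and Ccl4 together, was passed by most neutrophils: 15 of 17 and 5 of 7 in AD_ABR, against 590 of 707 (83.5%) and 82 of 102 (80.4%) in AD. C1q macrophages passed it in 66.0 and 70.3% of cells in AD, and without thinning 88.8 and 84.3% of AD neutrophils passed. No gene was called higher on the positive side (0% of 3589), and 7 were called lower (0.195%). Of 12 tested secondary granule genes 4 were lower: Camp, Ngp, Lcn2 and Chil3. Lcn2 had 174 and 12.8 CPM on the positive side, against 908 and 247 CPM on the negative side (log2 fold change -2.71, SE 0.56, adjusted p = 0.00396). Of 18 blood-stage genes 2 were lower, and Retnlg had 101 and 192 CPM on the positive side, against 814 and 524 CPM on the negative side (log2 fold change -2.27, SE 0.53, adjusted p = 0.0209). Camp (log2 fold change -3.85) and Ngp (-3.66) rested on AD replicate 1, since they had 2 and 0 UMIs in replicate 2. Beside these and Wfdc21, a further blood-stage gene, the call was Glycam1, a mucin of lymph node endothelium, with 44.4 and 0 CPM on the positive side, against 524 and 0 CPM on the negative side. All 20 tested genes of the tissue and aged list had log2 fold changes above 0, with a median of 0.60, against 0.06 over all genes, and none passed the test. The 8 tested chemokines outside the gate also lay above 0, with a median of 1.03, and none passed. Cxcl2 had 13544 and 15898 CPM on the positive side, against 4588 and 12338 CPM on the negative side (log2 fold change 1.06, SE 0.36, adjusted p = 0.486). Without the cells that held precursor UMIs 1 gene, Glycam1, was called, with neutrophils of at most 5000 UMIs none was, and a second thinning gave 188.

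The interferon gate, at least 2 UMIs over Ifit1, Ifit3, Isg15 and Rsad2, gave more calls than the other 2 gates at the settings used here (24, against 1 and 7), but fewer with a second thinning (18, against 83 and 188). It was passed by 2 of 17 and 0 of 7 neutrophils in AD_ABR (0 of 7 allows a share of up to 41.0%), against 37 of 707 (5.23%, exact 95% interval 3.71 to 7.14%) and 3 of 102 (2.94%, 0.611 to 8.36%) in AD. Without thinning 10.2 and 2.94% of AD neutrophils passed. C1q macrophages of AD passed it at 21.8 and 19.2% of cells. Median depth before thinning was 1905 and 1488 UMIs in positive neutrophils of AD, against 1617.5 and 1547 in negative ones. On the positive side 23 of 2258 genes were higher (1.02%) and 1 was lower (0.0443%). Of 36 interferon response genes on the list, gate genes included, 17 outside the gate passed the filter on low counts, and 14 of these were called. In the other 2 gates, where the interferon gate genes were not left out, 11 and 13 genes of this list passed the filter. Some thus passed here through the positive side, and the count is no support for the list. The positive cells of AD replicate 2 are only 3, so each of their values rests on few molecules.

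Gbp2, a guanylate-binding protein that attacks the vacuoles of pathogens, had 235 and 1054 CPM on the positive side, against 4.81 and 0 CPM on the negative side (log2 fold change 6.0, SE 0.70, adjusted p = 6.8e-14). Within replicate 1 its log2 fold change was 5.54. In replicate 2 the 3 positive cells held 5 Gbp2 UMIs and the negative cells none. Transcription factors of the pathway rose as well. Irf7, which amplifies interferon production, had 176 and 211 CPM on the positive side, against 19.2 and 5.43 CPM on the negative side (log2 fold change 3.35, SE 0.58, adjusted p = 3.3e-06). Stat2, a subunit of the complex that binds interferon-stimulated promoters, had 107 and 633 CPM on the positive side, against 11.7 and 10.9 CPM on the negative side (log2 fold change 3.57, SE 0.70, adjusted p = 8.2e-05). The positive values of Irf7 and Stat2 lay above the negative ones in both libraries. The Schlafen genes Slfn5 and Slfn4 rose, with log2 fold changes of 3.96 and 3.66. So did Isg20, a nuclease that degrades viral RNA (3.34), and Rtp4, a chaperone-related gene induced by interferon (3.67).

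Cxcl10 had 1046 and 21294 CPM on the positive side, against 171 and 206 CPM on the negative side (log2 fold change 4.28, SE 0.82, adjusted p = 5.1e-05). The value of 21294 CPM came from 101 UMIs in the 3 positive cells of replicate 2, and within replicate 1 the log2 fold change was 2.61. Irgm1, an interferon-inducible GTPase, and Ifih1, the RNA sensor MDA5, rose by 3.67 and 2.72 on the log2 scale, and H2-T23, a non-classical MHC gene, by 2.46. Aqp1, a water channel outside the interferon list, had 410.4 and 211 CPM on the positive side, against 38.5 and 16.3 CPM on the negative side (log2 fold change 3.48, SE 0.71, adjusted p = 1.7e-04). The single lower gene was Tagln, a smooth muscle gene, with 48.9 and 0 CPM on the positive side, against 694 and 967 CPM on the negative side (log2 fold change -3.99, SE 1.06, adjusted p = 0.0159). Its log2 fold change was -1.43 with neutrophils of at most 5000 UMIs and -1.71 without Scrublet-marked cells, and the call was lost in both. None of the 5 tested interleukin 1 family genes passed the test, and Il1b had 1925 and 8644 CPM on the positive side, against 2509 and 5698 CPM on the negative side (log2 fold change -0.21, SE 0.67, adjusted p = 0.998). With at least 10 S100a8 and S100a9 UMIs in the rule 2 genes were called. With no filter on low counts 74 were, but these included 10 of the 24 and left out the other 14.

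**Figure D4:**
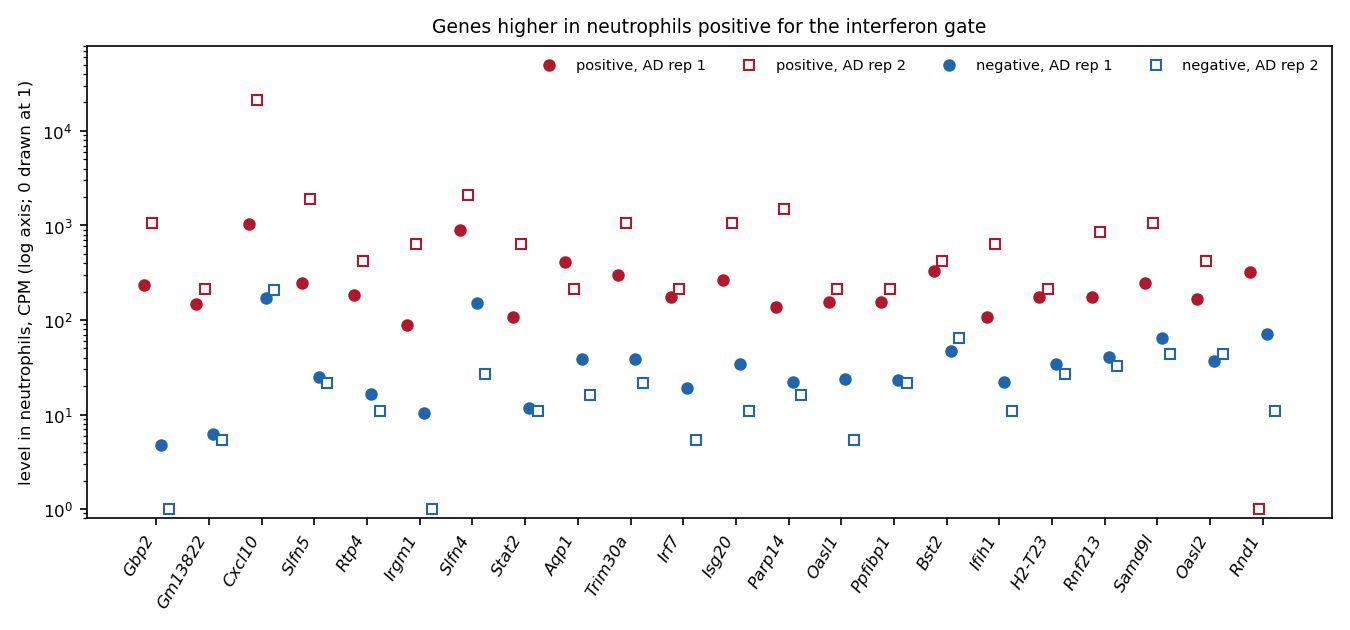
Levels in CPM on a log axis of 22 of the 23 genes higher in neutrophils that passed the interferon gate (red) than in those that did not (blue), for AD replicates 1 (filled circles) and 2 (open squares); a level of 0 is drawn at 1. The red points lie above the blue points of the same library for each gene shown except Rnd1 in replicate 2, where the 3 positive cells had no UMI.

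The promoters of these genes were read from the RefSeq promoter table (GRCm38.p6, 250 bases before to 50 after the start of each gene) and searched on both strands for GAAANNGAA, the core that interferon-stimulated response elements share. Of the 23 genes higher on the positive side 19 were found in the table, and 10 of these (52.6%) held a match. A match was found in 144 of 1771 promoters (8.13%) of genes tested and not called higher, and in 2317 of 27025 (8.57%) of the whole table. All 4 gate genes held one. The genes were chosen by a gate of interferon response genes, and some passed the filter through the positive side. The shares with a match are thus a description and no support for an interferon state. A match describes the letters only, and matches may overlap. Shown 5′ to 3′ on the strand of the gene, with matches in capitals, are the promoters of 3 genes that rose outside the gate, Gbp2 (chr3:142620413-142620712, plus strand), Slfn5 (chr11:82951852-82952151, plus strand) and Cxcl10 (chr5:92348840-92349139, minus strand), and of 1 gate gene for comparison, Isg15 (chr4:156200769-156201068, minus strand). The match of Gbp2 and that of Slfn5 nearer the start site read the core on the other strand.
Gbp2: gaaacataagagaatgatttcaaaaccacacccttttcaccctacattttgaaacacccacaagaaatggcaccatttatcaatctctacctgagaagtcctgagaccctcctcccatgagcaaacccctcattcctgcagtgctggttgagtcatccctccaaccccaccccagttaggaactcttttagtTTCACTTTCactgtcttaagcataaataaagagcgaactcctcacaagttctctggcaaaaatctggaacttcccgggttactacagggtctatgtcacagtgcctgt
Slfn5: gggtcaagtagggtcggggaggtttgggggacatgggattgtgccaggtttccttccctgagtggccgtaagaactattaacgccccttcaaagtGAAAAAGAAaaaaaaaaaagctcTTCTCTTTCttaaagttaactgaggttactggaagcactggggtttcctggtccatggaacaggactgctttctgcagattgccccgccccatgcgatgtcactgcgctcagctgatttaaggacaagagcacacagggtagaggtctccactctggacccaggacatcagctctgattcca
Cxcl10: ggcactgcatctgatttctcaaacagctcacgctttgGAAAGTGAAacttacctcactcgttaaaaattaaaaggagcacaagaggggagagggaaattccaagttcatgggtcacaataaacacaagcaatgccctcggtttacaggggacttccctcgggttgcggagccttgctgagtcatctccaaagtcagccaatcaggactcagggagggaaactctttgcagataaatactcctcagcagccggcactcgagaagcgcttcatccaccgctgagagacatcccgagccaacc
Isg15: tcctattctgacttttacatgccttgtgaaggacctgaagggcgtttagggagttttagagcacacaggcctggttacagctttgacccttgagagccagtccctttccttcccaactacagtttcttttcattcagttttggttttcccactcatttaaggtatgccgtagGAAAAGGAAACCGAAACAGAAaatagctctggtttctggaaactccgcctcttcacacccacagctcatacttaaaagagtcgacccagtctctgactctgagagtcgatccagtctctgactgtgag
Gbp2 and Cxcl10 held 1 match each, Slfn5 2 and Isg15 3, which overlap. The first matched base lay 58 bases before the start site in Gbp2.

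The few neutrophils of AD_ABR were compared with those of AD on sums per library. With 17 and 7 cells in AD_ABR and 93551 and 14629 UMIs, against 1625588 and 190574 UMIs in AD, precision was low. No gene of 2369 was called by edgeR's quasi-likelihood test in either direction (0% higher and 0% lower), 241 had an unadjusted p under 0.05, and DESeq2 called 0. Without AD_ABR replicate 2, whose sum was the smallest, 97 genes were called, 70 of them higher, and without AD replicate 2 the count was 2. The rule genes are given as description. S100a8 had 5601 and 5264 CPM in AD_ABR, against 16272 and 12237 CPM in AD, and S100a9 had 6125 and 15722 CPM in AD_ABR, against 14780.5 and 14887 CPM in AD. S100a8 was lower in both AD_ABR libraries and S100a9 overlapped. The values of AD_ABR replicate 1 include 3 neutrophils of over 5000 UMIs, which carried 62.7% of its neutrophil UMIs, while AD_ABR replicate 2 had none. The part of such deep barcodes in these levels was not tested.

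Il1b had 6392 and 8613 CPM in AD_ABR neutrophils, against 2486 and 5804 CPM in AD neutrophils (log2 fold change 0.59, SE 0.53, adjusted p = 0.751), and the groups did not overlap. Restricted to neutrophils of at most 5000 UMIs it had 12586 and 8613 CPM in AD_ABR, against 3013 and 6445 CPM in AD. Cxcl2 had 6585 and 9092 CPM in AD_ABR, against 11536 and 15327 CPM in AD, and Ccl3 had 2437 and 3896 CPM in AD_ABR, against 4302 and 2849 CPM in AD. Tnf had 802 and 547 CPM in AD_ABR, against 589 and 1401 CPM in AD, with AD_ABR and AD values interleaved. With at most 5000 UMIs per cell Tnf had 545 and 547 CPM in AD_ABR, against 707 and 1582 CPM in AD, and did not overlap. Cxcr4 had 235 and 1230.4 CPM in AD_ABR, against 459.5 and 861 CPM in AD, and Il1r2 had 716 and 1572 CPM in AD_ABR, against 996 and 1553 CPM in AD, again with overlap. With at most 5000 UMIs per cell, AD_ABR replicate 1 had 573 CPM of Cxcr4 and 1663 CPM of Il1r2, and both genes still overlapped between the groups. Mmp9 had 182 and 342 CPM in AD_ABR, against 735 and 1175 CPM in AD (log2 fold change -2.26, SE 0.58, adjusted p = 0.373), and Nfkbia, the feedback inhibitor of NF-κB, had 1464 and 1572 CPM in AD_ABR, against 3713 and 5919 CPM in AD (log2 fold change -1.92, SE 0.54, adjusted p = 0.373). For both the 2 AD_ABR values lay below the 2 AD values. With at most 5000 UMIs per cell Mmp9 had 401 and 342 CPM in AD_ABR, against 895 and 1289 CPM in AD, and Nfkbia had 2150.3 and 1572 CPM in AD_ABR, against 4223 and 6579 CPM in AD. Bcl2l11, which encodes the pro-apoptotic BIM, had 74.8 and 137 CPM in AD_ABR, against 397 and 504 CPM in AD (log2 fold change -2.53, SE 0.62, adjusted p = 0.373). With at most 5000 UMIs per cell it had 172 and 137 CPM in AD_ABR, against 446 and 544 CPM in AD.

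The lowest adjusted p-values belonged to MHC class II genes. H2-Aa had 10.7 and 0 CPM in AD_ABR, against 459.5 and 341 CPM in AD (log2 fold change -5.59, SE 0.94, adjusted p = 0.177), and Cd74 had 96.2 and 68.4 CPM in AD_ABR, against 1046 and 871 CPM in AD (log2 fold change -3.61, SE 0.64, adjusted p = 0.177). Restricted to neutrophils of at most 5000 UMIs, Cd74 had 229 and 68.4 CPM in AD_ABR, against 232 and 238 CPM in AD. The groups did not overlap, but the value of AD_ABR replicate 1 lay close to those of AD. H2-Aa then had 0 and 0 CPM in AD_ABR, against 101 and 24.4 CPM in AD. The restricted AD_ABR sums were 34879 and 14629 UMIs, so a level near the lower AD value could go unseen there. Ramp1, a receptor component of smooth muscle, had 257 and 205 CPM in AD_ABR, against 58.4 and 36.7 CPM in AD (log2 fold change 2.00, SE 0.52, adjusted p = 0.373), beside the smooth muscle markers given above. Of the interferon genes Rsad2 had 21.4 and 0 CPM in AD_ABR, against 167 and 247 CPM in AD (log2 fold change -3.60, SE 0.83, adjusted p = 0.373). Of 22 tissue and aged genes 20 were tested and of 13 MHC and checkpoint genes 9. None of their members passed the test.

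**Figure D5:**
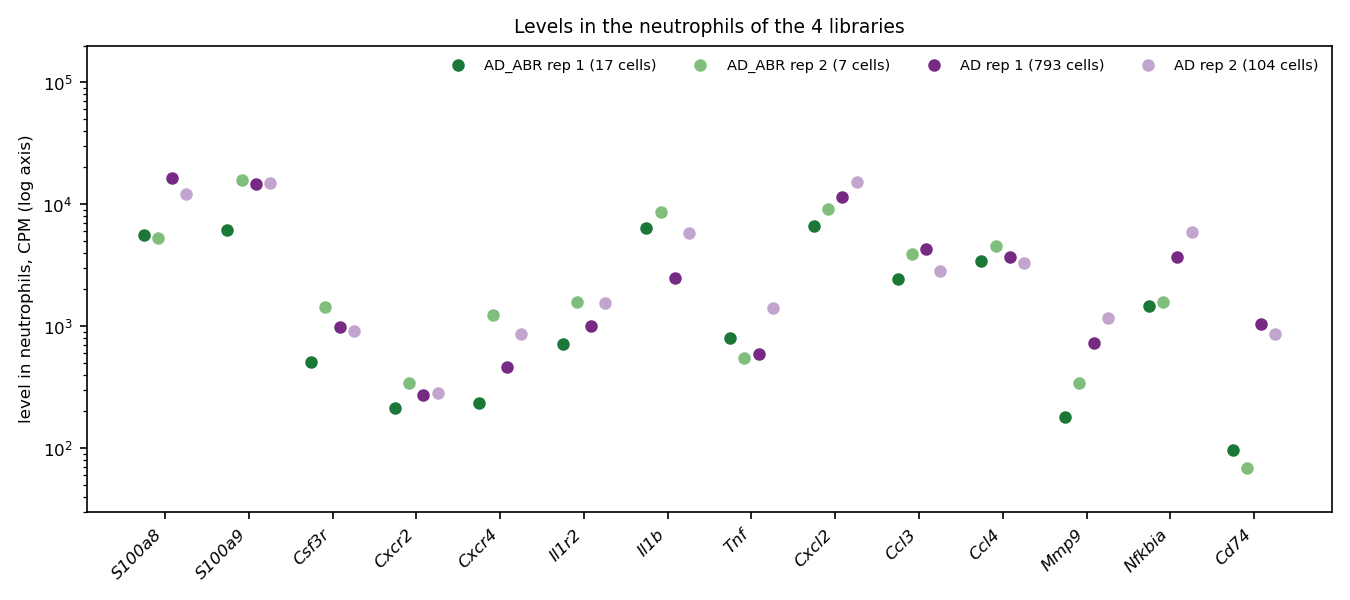
Levels of 14 genes in the neutrophils of the 4 libraries, in CPM on a log axis, with 17 and 7 cells in AD_ABR (green) and 793 and 104 in AD (purple). The 2 AD_ABR values of Mmp9, Nfkbia and Cd74 lie below the 2 AD values, those of Il1b above, and Cxcr2, Ccl4 and Il1r2 overlap.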

How the data were processed

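The authors deposited 1 matrix of whole-number UMI counts (10x 3′ libraries) for each of the 4 libraries. Per the submitters' processing notes, STAR, Cell Ranger 6.0, Seurat 4.0 and GRCm38 were used, while the matrix headers name Cell Ranger 7.1.0. The deposited counts were not normalized. Libraries held between 76142840 and 99572011 UMIs over all deposited barcodes.

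Barcodes were kept and neutrophils chosen by the criteria given at the start, with no doublets removed; removal of barcodes marked by Scrublet was an alternative. UMIs were summed per library and cell set. Genes with enough counts (filterByExpr) entered edgeR 4.0.16 (R 4.3.3; TMM scaling, robust quasi-likelihood test, Benjamini-Hochberg adjustment, threshold 0.05). Standard errors were taken from the F statistic, as the absolute log2 fold change over its root. Gates and the macrophage contrast had library as a block. Rule genes and gate genes were left out of the gates' tests. DESeq2 1.42.0 was an alternative. Clusters were made with scanpy 1.11.5 and leidenalg 0.10.2 at resolution 0.5. Each fit was also run on simulated counts with the same dispersion for all genes. The simulation left out gating, doublets and deep cells, so it cannot tell how stable the calls are under those choices.

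The members, the 28 gene lists and the tests were chosen with earlier results of these data known. Named genes were, for each comparison, up to 4 of each list with the lowest adjusted p, and the 10 called genes in each direction with the largest changes and a mean of at least 50 CPM on the higher side (5 for AD_ABR against AD). Ccl2, Ccl3, Il18, Tlr2, Tlr4, Nos2, Ifih1, H2-T23 and Ramp1, the genes given for clusters and any gene that the rule names for another comparison only were chosen after their values were seen. The same holds for the limit of 5000 UMIs, the second thinning and the removal of cells with precursor UMIs. Some items are not reported here.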

Additional observations from a re-analysis of the deposited data

How the results depend on the processing

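The difference in neutrophil share kept its direction in every alternative: log2 ratios (AD_ABR over AD) ran from -5.30 to -4.85 over other rules, and from -6.11 to -2.95 with 1 library left out, -2.95 without AD replicate 1. For AD_ABR against AD, 0 genes were called with the replicate block and 41 with no filter on low counts. With 1 library left out, between 0 and 97 were called. The fit without the block also called 0, so there was no call for the block to change. Deviations of libraries with the same replicate number had a correlation of 0.0051 over 2369 genes. AD_ABR replicate 2 held only 7 neutrophils and 14629 UMIs, so counting noise could hide a pairing. The correlation thus cannot decide whether libraries of the same number were paired. The Retnlg gate gave 1 call, against 0 with RLE size factors, 2 with at least 10 S100a8 and S100a9 UMIs, 4 each with DESeq2, no filter and sums of thinned UMIs, 26 with all 4 libraries, 30 with at most 5000 UMIs per cell, 37 without Scrublet-marked cells, 43 with the gate 1 UMI higher, 79 at 500 thinned UMIs, 83 with a second thinning and 11 without precursor cells. The chemokine gate gave 7, against 0 each with no library block, DESeq2, RLE size factors, all 4 libraries and at most 5000 UMIs, 1 each without Scrublet-marked cells and without precursor cells, 11 with at least 10 S100a8 and S100a9 UMIs, 13 with no filter, 63 with the gate 1 UMI higher, 65 at 500 thinned UMIs and 188 with a second thinning. The interferon gate gave 24, against 74 with no filter (10 of them shared) and 2 with at least 10 S100a8 and S100a9 UMIs, and the macrophage contrast 3335, against 1227 with DESeq2. Of single genes, 3 reversed: Cxcr4 between groups with 1 library left out (-1.77 to 0.05), Tagln across the Retnlg gate with at most 5000 UMIs (0.03) and Camp across the chemokine gate with 1 library left out (-4.34 to 0.05). The cause of these changes was not tested. The limit of 5000 UMIs, the second thinning and the removal of precursor cells were chosen after seeing the data. Depth limits what can be seen: 24 AD_ABR neutrophils hold 93551 and 14629 UMIs, and leaving out a library leaves an arm with 1 sample, which is assumed to vary like the others.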

Other observations

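Genes of adhesion, lipid mediators, clotting and transcription were not described above, and their levels in neutrophils and C1q macrophages of AD are again a description. Itgam, the integrin CD11b, had 233 and 189 CPM in neutrophils, against 261 and 184 CPM in macrophages, values that overlap. Icam1 had 279 and 981 CPM in neutrophils, against 99.3 and 149 CPM in macrophages, with the higher neutrophil value in replicate 2. Ptgs2, the inducible cyclooxygenase, had 926 and 609 CPM in neutrophils, against 151 and 140.3 CPM in macrophages, while Alox5, which starts leukotriene synthesis, had 52.9 and 63.0 CPM in neutrophils, against 14.3 and 30.1 CPM in macrophages. Plaur, the urokinase receptor, had 252 and 189 CPM in neutrophils, against 59.4 and 73.3 CPM in macrophages. Pf4, in macrophages a chemokine gene shared with platelets, had 92.9 and 21.0 CPM in neutrophils, against 2376 and 2607 CPM in macrophages, and Arg1, the cytosolic arginase, had 12.9 and 0 CPM in neutrophils, against 442 and 217 CPM in macrophages. Nos2, the inducible nitric oxide synthase, was near 0 in both, with 2.46 and 0 CPM in neutrophils, against 1.20 and 0.158 CPM in macrophages.

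Transcription factor genes differed in how close the 2 AD libraries lay. Mxd1, a MYC antagonist of maturing neutrophils, had 1042 and 1081 CPM in neutrophils, against 86.7 and 86.2 CPM in macrophages. Cebpb, a factor of granulocyte and macrophage gene control, had 3906 and 5657 CPM in neutrophils, against 1434 and 1332 CPM in macrophages, and it was seen in 96.1 and 98.1% of AD neutrophils. Spi1, which encodes PU.1, overlapped between the cell types, with 233 and 498 CPM in neutrophils, against 293 and 352 CPM in macrophages. Klf2 had 4008 and 2167 CPM in neutrophils, against 1202 and 510.2 CPM in macrophages. G0s2, an inhibitor of fat breakdown, had 1071 and 2356 CPM in neutrophils, against 4.80 and 2.22 CPM in macrophages and was seen in 42.2 and 63.5% of AD neutrophils. In AD_ABR neutrophils Mxd1 had 363 and 479 CPM, below both AD values, and G0s2 had 438 and 1299 CPM, which overlap those of AD. Neither passed the test between groups.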
